A study of Mus musculus with 6 samples.

Results

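The manchette structure and linker genes examined here are Hook1, Katnal2, Rimbp3, Iqcg, Clip1, Meig1, Lrguk and Spem1. They were chosen by name as genes whose proteins build, bind or work at the manchette, and all 8 were found among the 51826 Ensembl genes of the count tables and passed the filter on low counts. RNA came from the whole testis of C57BL/6J mice, 8 weeks old, with 3 samples labelled KIFC1 knockout and 3 labelled wild type. The labels give neither the allele nor the cells in which KIFC1 was removed. Nor do they tie each sample to its own animal, so a p-value here measures spread among samples that could be partly technical. Library totals ran from 32129093 to 38169198 counts in knockout and from 29274603 to 38703606 counts in wild type.

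The manchette is a temporary skirt of microtubules that surrounds the rear of the spermatid nucleus while the head elongates. It hangs from a perinuclear ring, helps to shape the head, carries proteins towards the growing tail, and is then taken apart. KIFC1 is a kinesin-14 motor that walks towards microtubule minus ends and has been placed at the manchette of rodent spermatids. The question here is how the transcripts of manchette linkers, severing enzymes and transport proteins stood in testes without Kifc1.

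The labels held for the targeted gene, since Kifc1 had 0.326, 0.737 and 0.282 CPM (counts relative to a library total scaled by the TMM method) in knockout, against 15.5, 16.1 and 14.7 CPM in wild type. Spermatid transcripts such as Prm1, Tnp1 and Acrv1 were abundant in every sample, and the epididymal genes Crisp1, Lcn5 and Adam7 had 0 counts in all 6 samples. Mitochondrial genes took 1.54% to 5.74% of counts in knockout and 0.661% to 0.935% in wild type. The libraries also differed in base composition. Across genes, the Spearman rho between GC content and a library's deviation from the mean of all libraries was -0.667 to -0.120 in knockout and 0.244 to 0.527 in wild type, and knockout sample 2 had the lowest value. Log2 fold changes are therefore also given from a trend-corrected fit, in which library-specific trends over GC content and over exon length were removed. The rho values were negative in every knockout library and positive in every wild-type library. That fit can thus also remove knockout effects that follow GC content, and technical and knockout effects cannot be told apart there.

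Transcripts of Hook1 and Iqcg rose in knockout testes, those of Clip1 and Lrguk had higher means without passing the test, and those of Katnal2, Rimbp3, Meig1 and Spem1 had overlapping values. Of the 8 genes, 2 rose and 0 fell (edgeR quasi-likelihood test, Benjamini-Hochberg adjusted p under 0.05 over all genes). Of all 21518 genes tested, 8.23% were called, 3.11% as rises and 5.12% as falls. The median log2 fold change, knockout over wild type, was 0.30 for the 8 genes and -0.01 for all tested genes. At an unadjusted p under 0.05, 4 of the 8 were higher and 0 lower, against 12.1% of all tested genes higher and 27.1% in either direction. The calls of Hook1 and Iqcg ended in the trend-corrected fit. They also ended with any sample left out, except knockout sample 2. Most calls of the whole series ended in the same fits. Over all genes, 1770 calls became 37 in the trend-corrected fit and 1 to 425 with a sample other than knockout sample 2 left out. In whole testis, a change in the number of cells of a type and a change in RNA per cell cannot be told apart.

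**Figure D1:**
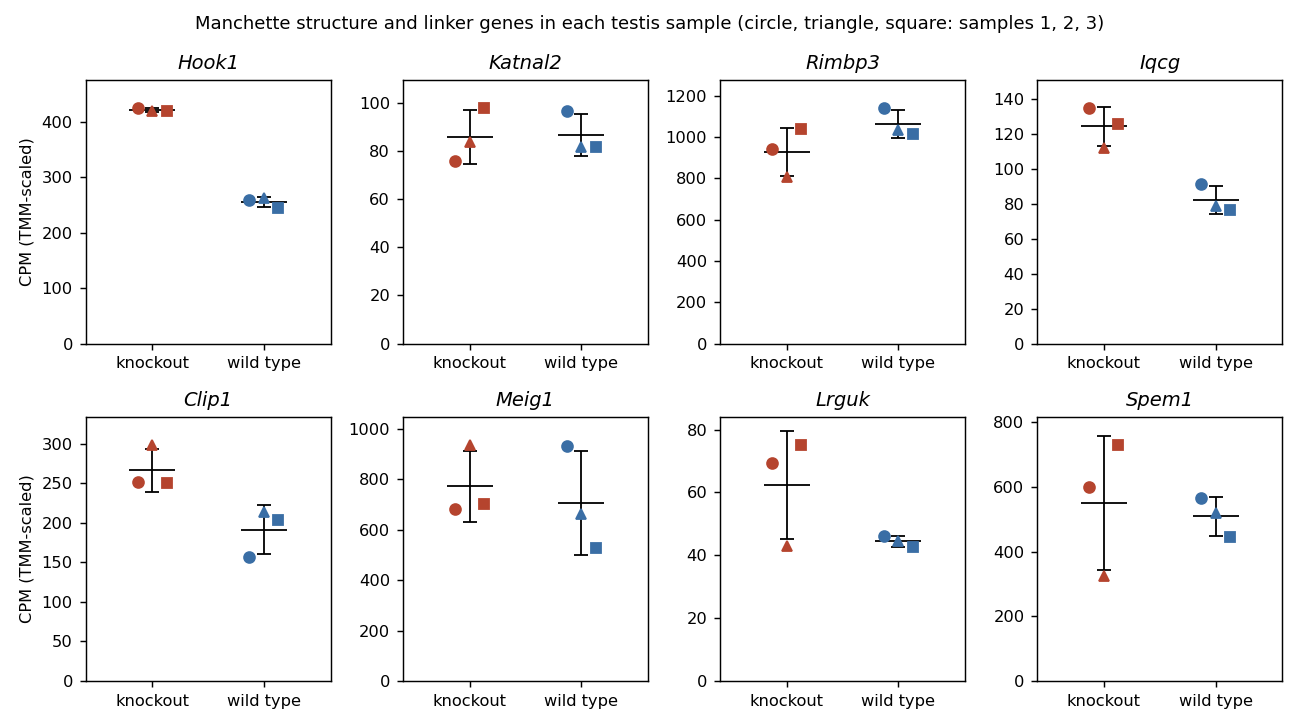
CPM (vertical axes, starting at 0) of each gene in the 3 knockout and 3 wild-type samples, with circles, triangles and squares for samples 1, 2 and 3, horizontal marks for group means and bars for the SD. Hook1, Iqcg and Clip1 had every knockout sample above every wild-type sample. Knockout sample 2 was the lowest of its group for Hook1 (narrowly), Rimbp3, Iqcg, Lrguk and Spem1, and lay furthest below the others for Lrguk and Spem1.

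Hook1 encodes a coiled-coil linker between microtubules and cargo that is mutated in the azh mouse, whose sperm heads are misshapen. Hook1 (ENSMUSG00000028572, chromosome 4, 95967240 to 96025413, plus strand, GRCm38) had 425, 419 and 420 CPM in knockout samples 1, 2 and 3, against 258, 262 and 245 CPM in wild-type samples 1, 2 and 3. The 3 knockout values lay close together and none came near a wild-type value. The means were 421 ± 3.23 CPM in knockout and 255 ± 9.31 CPM in wild type (SD, n = 3 each). The log2 fold change was 0.72 (SE 0.13, edgeR adjusted p = 0.0186), and DESeq2's Wald test gave an adjusted p of 2.9e-05.

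Hook1 was no longer called in the trend-corrected fit (log2 fold change 0.37, SE 0.13, adjusted p = 0.145), and its longest transcript has a GC content of 41.1%, below the median of 49.0% of all tested genes. Leaving out any sample other than knockout sample 2 also ended the call, at adjusted p values of 0.051 to 0.0997, while the log2 fold change stayed between 0.69 and 0.76 over all 6 such fits. The antisense gene 9530080O11Rik shares 317 of the 8318 exon bases of Hook1, at its start. It had 6.82, 7.60 and 14.5 CPM in knockout and 10.3, 12.6 and 12.7 CPM in wild type, which is small beside the Hook1 level.

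The Hook family was described by the share of each gene in its summed level. Hook2, whose protein also links microtubules to cargo, had 95.3, 115 and 126 CPM in knockout, against 192, 158 and 147 CPM in wild type. Every knockout sample lay below every wild-type sample, the opposite of Hook1, but Hook2 did not pass the test (log2 fold change -0.56, SE 0.17, adjusted p = 0.0685). Separation with knockout lower was found in 18.1% of all tested genes. Per kilobase of exon, Hook1 held 67.6%, 63.0% and 61.2% of the summed level of Hook1, Hook2 and Hook3 in knockout, against 39.0%, 44.1% and 44.0% in wild type. Hook2 held 35.4 ± 3.40% in knockout and 57.1 ± 2.99% in wild type (SD, n = 3 each). Hook3 held 0.643 ± 0.181% in knockout and 0.507 ± 0.0864% in wild type. The groups did not overlap in the Hook1 share. Since 3 against 3 samples allow no exact two-sided permutation p below 0.1, the value here, and the family was chosen with its values known, the shares are a description without a test that could pass. With the length of the longest transcript in place of all exon bases, Hook1 held 67.1 ± 3.04% in knockout and 46.0 ± 2.93% in wild type, and Hook3 held 0.994 ± 0.276% in knockout and 0.810 ± 0.134% in wild type. Hook1 and Hook2 differ in GC content (41.1% and 53.2%), and the trend-corrected log2 fold changes were 0.37 for Hook1 and -0.34 for Hook2, neither called.

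**Figure D2:**
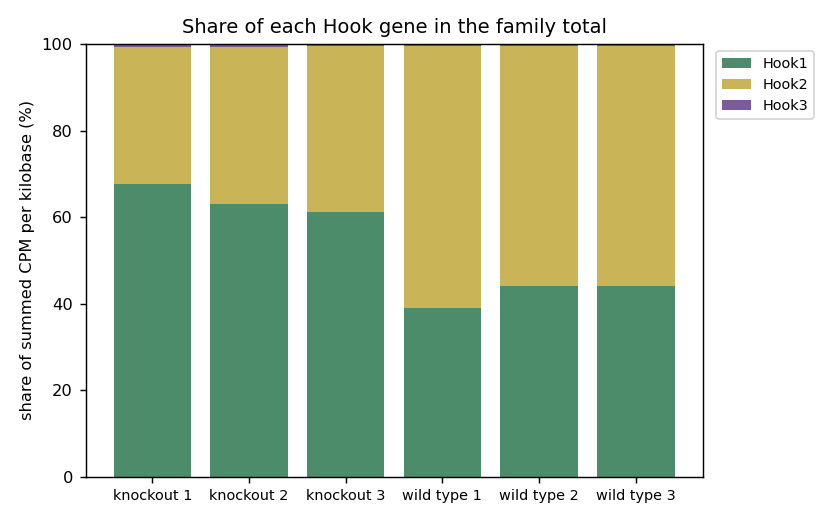
Share (percent, vertical axis from 0 to 100) of Hook1, Hook2 and Hook3 in their summed CPM per kilobase of exon, 1 bar per sample. Hook1 held 61.2% to 67.6% in the 3 knockout samples and 39.0% to 44.1% in the 3 wild-type samples.

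Rimbp3 encodes a manchette protein that binds HOOK1 in mouse spermatids. Rimbp3 (ENSMUSG00000071636, chromosome 16, 17208603 to 17213982, plus strand, with a single exon) had 940.0, 805 and 1036 CPM in knockout, against 1140, 1034 and 1014 CPM in wild type. Knockout sample 3 fell within the wild-type range and the other knockout samples lay below it. Rimbp3 had a log2 fold change of -0.20 (SE 0.15, 95% interval -0.53 to 0.14, adjusted p = 0.431) and turned to 0.10 in the trend-corrected fit (adjusted p = 0.712). Ccdc181, which encodes another HOOK1-binding protein, had 435 ± 14.4 CPM in knockout and 321 ± 25.9 CPM in wild type (log2 fold change 0.44, SE 0.13, adjusted p = 0.0763).

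Clip1 encodes CLIP-170, which tracks growing microtubule ends and lies at the spermatid manchette; sperm heads are abnormal in mice without it. Clip1 (ENSMUSG00000049550, chromosome 5, 123577795 to 123684618, minus strand) had 252, 298 and 250.01 CPM in knockout, against 156, 214 and 204 CPM in wild type. Every knockout sample lay above every wild-type sample, and wild-type sample 1 was the lowest of all. Such separation with knockout higher was found in 3 of the 8 genes, and in 14.6% of all tested genes (32.7% in either direction). The log2 fold change of 0.48 (SE 0.16, 95% interval 0.11 to 0.85) did not pass edgeR's test (adjusted p = 0.104), while DESeq2 gave an adjusted p of 0.0427. DESeq2 called 3 of the 8 genes, Hook1, Iqcg and Clip1, against 18.3% of the genes for which it gave an adjusted p. The trend-corrected log2 fold change was 0.36 (adjusted p = 0.21). The related gene Clip2 was low, at 2.67 ± 0.733 CPM in knockout and 3.53 ± 1.61 CPM in wild type.

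Katnal2 encodes a katanin-like enzyme of the family that severs microtubules, and mice without it have a disordered manchette and misshapen sperm heads. Katnal2 (ENSMUSG00000025420, on chromosome 18) had 75.6, 83.6 and 97.8 CPM in knockout, against 96.5, 81.6 and 81.8 CPM in wild type. The groups covered nearly the same range. The log2 fold change was -0.02 (SE 0.15, 95% interval -0.37 to 0.33, adjusted p = 0.96) and 0.05 in the trend-corrected fit, and the interval leaves room for a modest difference in either direction. Among the catalytic katanins, Katnal2 held 50.2 ± 3.15% of the summed level per kilobase of Katnal2, Katna1 and Katnal1 in knockout and 49.8 ± 1.24% in wild type. Katna1 and Katnal1, whose exons overlap other genes, were not called either (log2 fold changes 0.0052 and -0.09).

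Iqcg encodes a calmodulin-binding IQ-motif protein of the nexin-dynein regulatory complex, and mouse spermatids without it fail to build a proper tail. Iqcg (ENSMUSG00000035578, chromosome 16, 33012683 to 33056218, minus strand) had 135, 112 and 126 CPM in knockout, against 91.2, 78.6 and 76.2 CPM in wild type. The groups did not overlap. The means were 124 ± 11.4 CPM in knockout and 82.0 ± 8.07 CPM in wild type, and the log2 fold change of 0.60 (SE 0.15) passed edgeR's test with an adjusted p of 0.0402. Without the filter on low counts the adjusted p was 0.0673, in the trend-corrected fit it was 0.13 (log2 fold change 0.45, SE 0.15), and the fits without 1 sample gave 0.0746 to 0.174, except without knockout sample 2 (0.0199).

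The Iqcg level is uncertain because its 3' end shares 2965 bases, 48.1% of its exon bases, with the 3' end of Lrch3 on the opposite strand (chromosome 16, 33012683 to 33015647). The strand setting of the counting is not given in the sources used here. Lrch3 had 44.8, 35.7 and 35.9 CPM in knockout, against 10.1, 14.0 and 39.2 CPM in wild type, and was not called (log2 fold change 0.88, SE 0.44, adjusted p = 0.233). Wild-type sample 3 had the highest Lrch3 level of its group and the lowest Iqcg level. In knockout, sample 1 was the highest and sample 2 the lowest for both genes. The part of Lrch3 reads in the Iqcg result was not tested.

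Promoter windows are shown for both genes that rose and, for comparison, for Lrguk, the member whose window holds all 3 of the motifs searched. The windows run from 250 bases before to 50 after an annotated start and come from RefSeq on GRCm38.p6. Capitals mark TGACGTCA (the full cAMP response element, CRE, bound by the spermatid regulator CREM), GTTGCC (part of the X-box bound by RFX factors of ciliary and spermatid genes) and CCAAT (the CCAAT box), on either strand.
Hook1, chr4:95967129-95967428, plus strand: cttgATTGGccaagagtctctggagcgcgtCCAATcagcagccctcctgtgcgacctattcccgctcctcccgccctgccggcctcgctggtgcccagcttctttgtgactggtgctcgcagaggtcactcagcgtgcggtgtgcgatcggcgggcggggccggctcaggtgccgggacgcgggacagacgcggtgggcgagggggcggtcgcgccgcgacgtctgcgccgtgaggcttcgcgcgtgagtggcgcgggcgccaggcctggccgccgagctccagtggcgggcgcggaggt
Iqcg, chr16:33056137-33056436, minus strand: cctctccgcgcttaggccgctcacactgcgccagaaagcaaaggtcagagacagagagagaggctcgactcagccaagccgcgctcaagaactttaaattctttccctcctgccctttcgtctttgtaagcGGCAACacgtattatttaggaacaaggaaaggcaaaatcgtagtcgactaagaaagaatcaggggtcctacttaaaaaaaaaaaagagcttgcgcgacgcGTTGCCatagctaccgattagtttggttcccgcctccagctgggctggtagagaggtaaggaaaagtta
Lrguk, chr6:34029198-34029497, plus strand: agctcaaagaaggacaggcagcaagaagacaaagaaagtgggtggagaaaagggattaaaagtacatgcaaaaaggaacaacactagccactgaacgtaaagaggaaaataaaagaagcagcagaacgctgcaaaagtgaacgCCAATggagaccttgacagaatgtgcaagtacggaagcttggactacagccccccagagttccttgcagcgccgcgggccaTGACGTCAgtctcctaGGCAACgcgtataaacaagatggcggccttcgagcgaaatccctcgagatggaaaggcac
The Hook1 window holds CCAAT on each strand and neither of the other motifs. The Iqcg window holds GTTGCC on each strand, and the Lrguk window holds TGACGTCA, GTTGCC and CCAAT. Windows were found for 6 of the 8 genes, 8 windows in all since Meig1 has 3. Of these 8, 1 held TGACGTCA, 3 held GTTGCC (Iqcg, Lrguk and Spem1) and 4 held CCAAT (Hook1, Lrguk, Spem1 and 1 of Meig1). Among all 32851 windows, 1.79% held TGACGTCA, 12.5% GTTGCC and 37.4% CCAAT. The genes that rose thus shared none of these letters in their windows, whose GC content was 72.7% for Hook1 and 49.3% for Iqcg.

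Meig1 encodes a small protein that helps to hold cargo such as SPAG16 at the manchette on its way to the tail. Meig1 (ENSMUSG00000026650, chromosome 2, 3409043 to 3422648, minus strand) had 681, 935 and 701 CPM in knockout, against 930.5, 663 and 527 CPM in wild type. Knockout sample 2 and wild-type sample 1 were the high samples, and the groups overlapped across most of their range. Meig1 thus had a log2 fold change of 0.13 (SE 0.23, 95% interval -0.39 to 0.64, adjusted p = 0.758), and -0.03 in the trend-corrected fit. Spag16 had 106 ± 12.95 CPM in knockout and 121 ± 9.88 CPM in wild type (log2 fold change -0.18, adjusted p = 0.47).

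Lrguk encodes a protein with leucine-rich repeats and a guanylate kinase domain that mouse spermatids need for manchette function and tail growth, and that binds HOOK2. Lrguk (ENSMUSG00000056215, chromosome 6, 34029448 to 34134034, plus strand) had 69.3, 42.9 and 75.0 CPM in knockout, against 46.1, 44.5 and 42.7 CPM in wild type. Knockout samples 1 and 3 lay above all wild-type samples, and knockout sample 2 lay among them. The log2 fold change was 0.49 (SE 0.21, 95% interval 0.01 to 0.97, adjusted p = 0.175), and without knockout sample 2 it was 0.70 (adjusted p = 0.016). That fit called Hook1, Iqcg and Lrguk among the 8 genes, beside 14.3% of all genes it tested. In the trend-corrected fit it was 0.21 (SE 0.22, adjusted p = 0.61) with all samples and 0.41 (adjusted p = 0.131) without knockout sample 2.

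Spem1 encodes a protein of elongating spermatids that mice need to strip the cytoplasm from the sperm head and neck. Spem1 (ENSMUSG00000041165, chromosome 11, 69820876 to 69822180, minus strand) had 599.6, 323 and 729 CPM in knockout, against 564, 519 and 445 CPM in wild type. The knockout samples spanned the whole wild-type range, with sample 2 below it and samples 1 and 3 above it. Its log2 fold change was 0.11 (SE 0.27, 95% interval -0.50 to 0.72, adjusted p = 0.824). It was 0.38 without knockout sample 2 (adjusted p = 0.125) and -0.12 without knockout sample 3. In the trend-corrected fit it was 0.45 (adjusted p = 0.29) with all samples, and 0.70 (adjusted p = 0.0106) without knockout sample 2. That last fit was added after the data were seen, leaves out the lowest Spem1 sample, and called 2966 genes in all. The SPEM1 partner genes Ubqln1 and Ranbp17 were not called in the main fit (log2 fold changes 0.10 and -0.19).

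Knockout sample 2 stood apart within its group, in different directions for different genes. Relative to the knockout mean of log2 CPM it was at -0.69 for Spem1, -0.50 for Lrguk, -0.20 for Rimbp3 and -0.14 for Iqcg, but at 0.29 for Meig1, 0.17 for Clip1, -0.03 for Katnal2 and -0.01 for Hook1. Of 11 elongating spermatid markers, knockout sample 2 had the lowest knockout value in 7 and the highest in 4 (Tnp1, Odf1, Akap4 and Hils1). Smcp had 7584, 2206 and 9260 CPM and Gapdhs 3014, 1547 and 4168 CPM in knockout samples 1, 2 and 3, so sample 2 was low there, while Tnp1 had 1283, 2590 and 1378 CPM in the same samples.

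**Figure D3:**
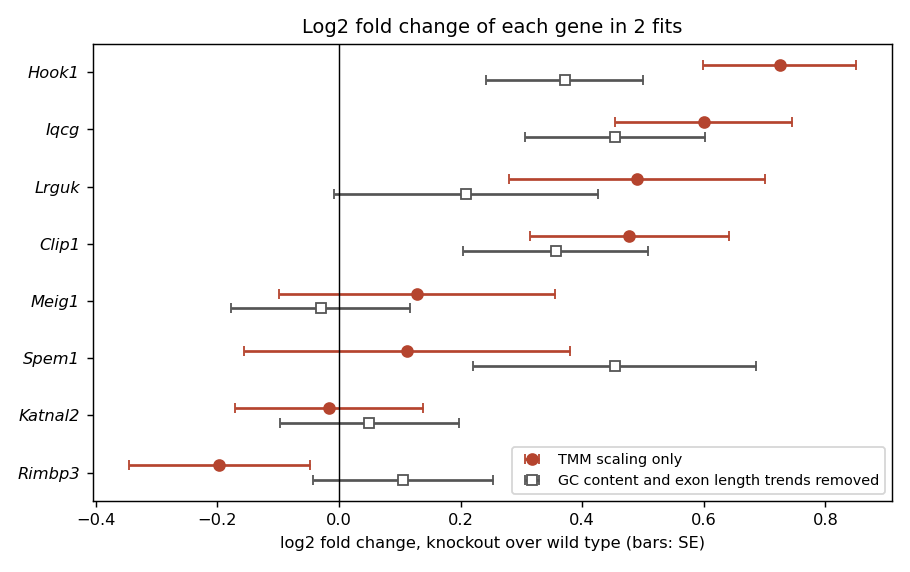
Log2 fold change, knockout over wild type, of each gene with its SE, from the fit with TMM scaling (filled circles) and from the fit with GC content and exon length trends removed (open squares). Hook1 (0.72 and 0.37), Iqcg (0.60 and 0.45), Clip1 (0.48 and 0.36), Lrguk (0.49 and 0.21) and Spem1 (0.11 and 0.45) lay above 0 in both fits. Rimbp3 (-0.20 and 0.10), Meig1 (0.13 and -0.03) and Katnal2 (-0.02 and 0.05) lay on opposite sides of 0.

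Levels of the 8 genes were compared with each other per kilobase of exon. In wild type the order was Meig1 (641 ± 186 CPM per kilobase), Spem1 (489 ± 57.8), Rimbp3 (197 ± 12.6), Hook1 (30.7 ± 1.119), Katnal2 (21.3 ± 2.11), Clip1 (15.5 ± 2.48), Iqcg (13.3 ± 1.31) and Lrguk (3.68 ± 0.140), with n = 3 each. The wild-type samples of Meig1 and Spem1 overlapped, as did those of Clip1 and Iqcg, and all other neighbours in this order were apart. In knockout the first 4 places were held by the same genes, with 701 ± 128, 529 ± 199, 172 ± 21.6 and 50.7 ± 0.389 CPM per kilobase. Clip1 (21.5 ± 2.21), Katnal2 (21.1 ± 2.77) and Iqcg (20.2 ± 1.85) overlapped there, and Lrguk was again lowest (5.17 ± 1.42). With the length of the longest transcript the wild-type order of means was the same, but the overlaps changed. Hook1 (46.2 ± 1.69) and Katnal2 (42.5 ± 4.21) then overlapped, while Meig1 (746 to 1318) no longer overlapped Spem1 (428 to 542), nor Clip1 (25.5 to 34.9) Iqcg (13.6 to 16.2). As a ratio, the levels of Katnal2 and Clip1 moved most with this choice, Clip1 to 31.2 ± 5.018 CPM per kilobase. As a difference, Meig1 moved most, to 1001 ± 291 CPM per kilobase.

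**Figure D4:**
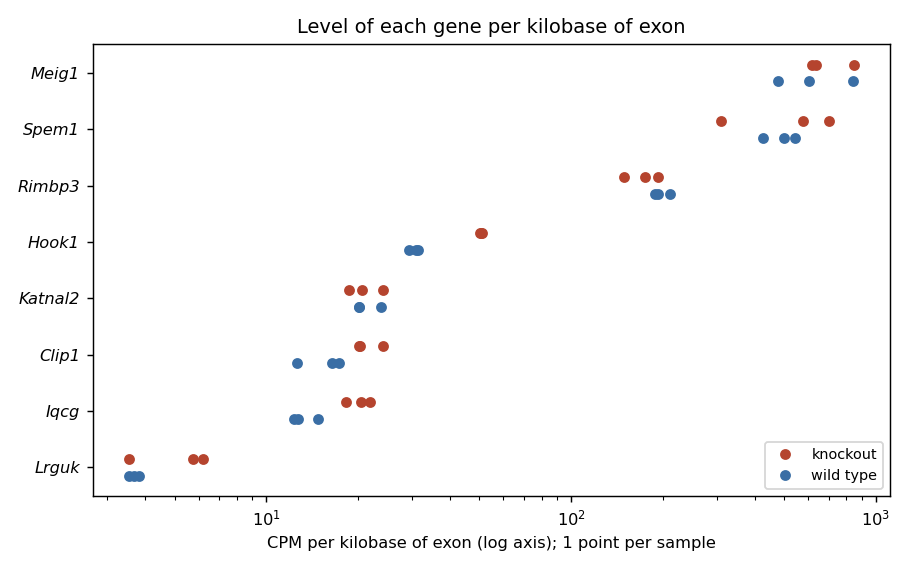
CPM per kilobase of exon (log axis) of each gene, 1 point per sample, with knockout above wild type. Meig1, Spem1 and Rimbp3 stood far above the other genes, and Hook1 formed separate tight groups (50.4 to 51.1 in knockout, 29.4 to 31.5 in wild type).

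Other genes of the manchette and its transport moved in both directions. Of 40 such genes, all tested, 4 rose and 2 fell (edgeR adjusted p under 0.05), beside 8.23% of all tested genes called. Their median log2 fold change was 0.02, and 22 of the 40 had a positive value. Ift74, which encodes an intraflagellar transport protein of the growing tail, rose to 190.5, 196 and 158 CPM in knockout, against 99.5, 96.7 and 114 CPM in wild type (log2 fold change 0.81, SE 0.15, adjusted p = 0.0201). Every knockout sample lay above every wild-type sample. Kif27, a kinesin of motile cilia in mice, rose to 374 ± 29.3 CPM in knockout, against 262 ± 5.29 CPM in wild type (log2 fold change 0.52, adjusted p = 0.0466), and its exons overlap Gm26555 and Mir6369.

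Spag4, which encodes SUN4, a nuclear envelope protein that anchors manchette microtubules in mouse spermatids, fell to 133, 139 and 153 CPM in knockout, against 244, 216 and 211 CPM in wild type. Its log2 fold change was -0.66 (SE 0.14, edgeR adjusted p = 0.0272). Spef2, which encodes a protein of the growing tail, also rose (log2 fold change 0.73), and Ropn1l, a fibrous sheath gene, fell (-0.62). In the trend-corrected fit none of the 40 genes and none of the 8 was called by edgeR, beside 0.172% of all tested genes. At an unadjusted p under 0.05 that fit had 7 of the 40 higher and 2 lower, and 3 of the 8 higher (Hook1, Iqcg and Clip1) and 0 lower, against 22.3% of all tested genes in either direction. The count among the 40 was thus near the share of all genes. Its log2 fold changes were 0.58 for Ift74, 0.50 for Kif27, 0.40 for Spef2, -0.24 for Ropn1l and -0.26 for Spag4.

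**Figure D5:**
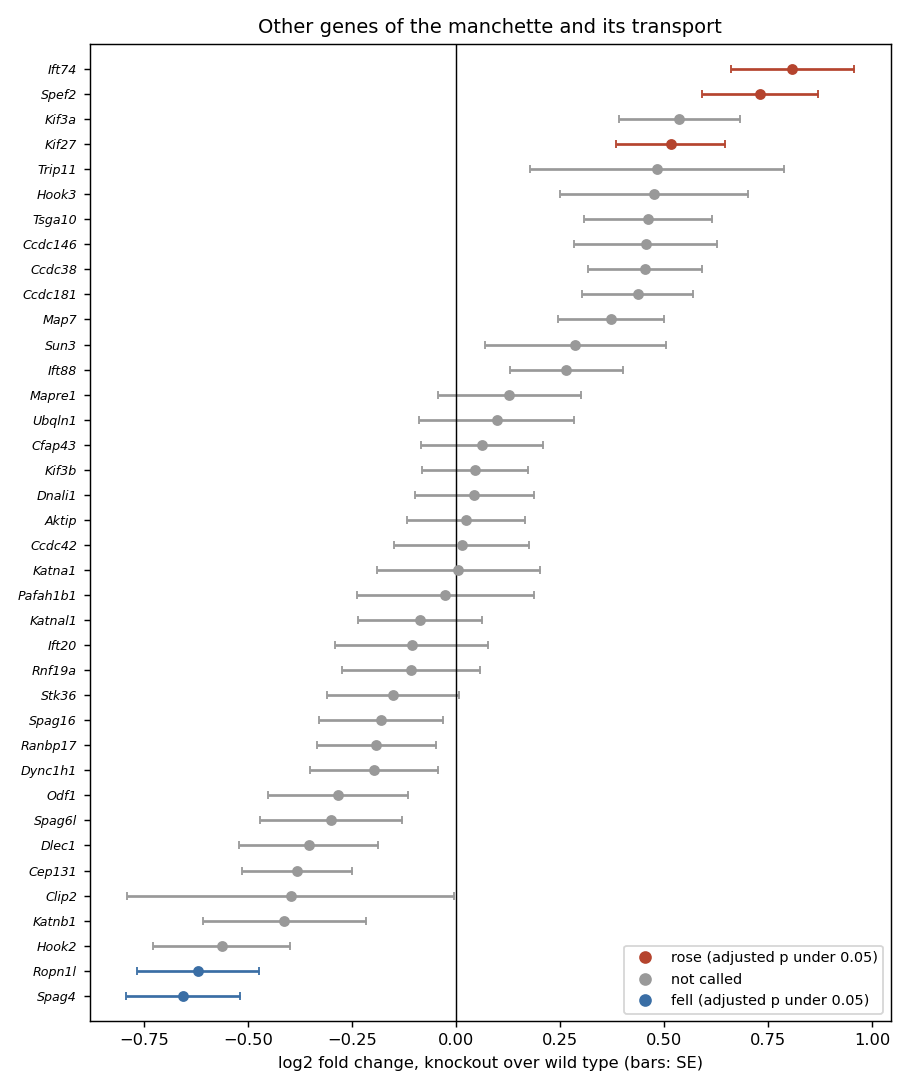
Log2 fold change, knockout over wild type, with its SE, of 38 other genes of the manchette and its transport, sorted by value. The 3 genes that rose (Ift74, Spef2 and Kif27) and the 2 that fell (Spag4 and Ropn1l) are coloured, and the other 33 are grey.

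For 7 of the 8 genes, the gene of these 40 with the most similar pattern over the 6 samples was found by the root mean square difference of log2 CPM, each gene centred on its own mean. Hook1 was closest to Spef2 (0.07), Katnal2 to Ccdc42 (0.08) and Iqcg to Kif3a (0.09). Clip1 was closest to Ccdc146 (0.11), Meig1 to Sun3 (0.14), and both Spem1 (0.16) and Lrguk (0.20) to Ubqln1. The samples share their libraries and base composition trends, so these distances are a description of these 6 libraries.

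Markers of round and elongating spermatids moved unevenly. Of 8 round spermatid markers, 2 rose and 0 fell, where 8.23% of all tested genes were called in the same fit. Their summed level was 1024 to 1268 CPM in knockout and 880.4 to 1093 CPM in wild type. Of 11 elongating spermatid markers, 1 rose (Smcp) and 3 fell (Prm1, Tnp2 and Tssk6), with sums of 19209 to 31236 CPM in knockout and 25197 to 26835 CPM in wild type. Those sums include Smcp, at 7584, 2206 and 9260 CPM in knockout samples 1, 2 and 3, against 1549, 1934 and 1861 CPM in wild type. In 5 of the 11 markers every knockout sample lay below every wild-type sample, and in 1 above. The shares of all tested genes were 18.1% below and 14.6% above. Of 10 Sertoli cell markers, 1 rose and 0 fell, with sums of 1094 to 1717 CPM in knockout and 821 to 1183 CPM in wild type. The sums of 8 pachytene spermatocyte markers ran from 3447 to 3952 CPM in knockout and from 3471 to 3798 CPM in wild type, with 1 gene up and 1 down. Of 8 spermatogonial markers, 0 rose and 1 fell, and of the Leydig (8), myoid (5), macrophage (7) and endothelial (6) markers none was called, with Leydig sums of 1057 to 1605 CPM in knockout and 641 to 1376 CPM in wild type. In the trend-corrected fit 0 of the 35 spermatid, spermatocyte and spermatogonial markers were called, beside 0.172% of all tested genes. At an unadjusted p under 0.05 that fit had 15 of the 35, beside 22.3% of all tested genes. Among the other cell types it called the Sertoli marker Rhox8 (edgeR adjusted p = 0.0479). None of these markers was at 0, and their part in the Hook1 and Iqcg results was not tested.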

How the data were processed

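RNA of 6 whole-testis samples was made into mRNA libraries (YEASEN Hieff NGS kit) and sequenced on a NovaSeq, per the labels' protocols. The deposited files hold raw counts per Ensembl gene, not normalized by the authors, and the submitters' processing notes name Trimmomatic, HISAT2, HTSeq and mm10 without versions. For the annotation release, the strand setting and multi-mapping reads, the authors' choices are not stated in the sources used here. Symbols, coordinates, exon lengths and the GC content of the longest transcript came from GENCODE M21 (GRCm38, which mm10 names) and matched 51633 of 51826 identifiers. Samples of a group differed by more than sampling noise in every pair (chi-square over degrees of freedom of 15.4 or more). A floor of 3 counts corresponds to 0.0775 to 0.102 CPM, for counting error only.

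All genes were fitted together with edgeR 4.0.16 (R 4.3.3; quasi-likelihood test, TMM scaling, filterByExpr, group as the only term), and genes with an adjusted p under 0.05 were called. SE values were derived from the fold change and its F statistic. Distances between patterns used log2 CPM with a prior count of 2. Trend correction used per-library splines (5 degrees of freedom each for GC content and log2 exon length) over 12751 genes. The fitting step was first tested on simulated data with known changes. It recovered 33 of 100 changes of 2-fold and 89 of 100 changes of 4-fold, and 11 of its 133 calls were of unchanged genes. The members, lists and tests were chosen with earlier results of these data known. Paralogs and partners were named by their proteins' known relations after their values were seen, as were the motifs. Named by rule were the 8 genes, Kifc1, the called genes among 40 others, and the closest pattern for each gene, of which some are not reported here. Alternatives were 2 other scalings, 2 other filters, DESeq2 1.42.0, a replicate block, trend correction, no mitochondrial genes and each sample left out. A fit without knockout sample 2 with trend correction was added after the data were seen.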

Additional observations from a re-analysis of the deposited data

How the results depend on the processing

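The count of called members was 2 under both other scalings, at least 1 CPM in 3 samples, without mitochondrial genes, and without knockout sample 2 with trend correction (where they were Iqcg and Spem1), and 3 with DESeq2. It was 1 without a filter and 0 with the replicate block, trend correction or both together, and 0 to 3 with a sample left out. At an unadjusted p under 0.05, edgeR had 3, 3 and 1 members higher and 0 lower in those 3 fits. The shares of all genes in either direction were 19.6%, 22.3% and 15.3%, and the last count was near its share. None of these counts was tested against its share. The 6 calls among 40 other manchette genes became 11 with DESeq2, 0 with the block, trend correction or both (8, 9 and 7 at an unadjusted p under 0.05, close to the same shares of all genes), and 0 to 7 with a sample left out. Over all genes, 1770 calls became 1010 without a filter, 21 with the block, 37 with trend correction, 7 with both, 3275 with DESeq2, 2966 without knockout sample 2 with trend correction, and 1 to 3149 with a sample left out. The cause of these changes was not tested.

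The replicate numbers were not found to pair the samples: deviations of same-numbered samples correlated at -0.286, -0.0558 and -0.126, and no sample correlated best with its own number. With the replicate block, Hook1 had an adjusted p of 0.105 and Iqcg of 0.145, at log2 fold changes of 0.73 and 0.60. Hook1, Iqcg, Clip1 and Lrguk stayed positive in all 16 alternatives. Signs turned only for members that the main edgeR fit did not call. Katnal2 had 0.0096 with DESeq2 size factors, 0.0068 with DESeq2, 0.050 with trend correction, 0.050 with the block added, 0.046 without knockout sample 2 with trend correction, and -0.10 to 0.093 with a sample left out. In those 3 trend-corrected fits Rimbp3 had 0.10, 0.11 and 0.11, and Meig1 had -0.030, -0.023 and -0.090. With a sample left out, Meig1 ran between -0.047 and 0.40 and Spem1 between -0.12 and 0.38. With 3 samples a group, a difference of the size seen for Clip1 or Lrguk can be missed.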
